A study of Rattus norvegicus with 24 samples.

Results

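Gene expression was compared in the hippocampus of 7-day-old rat pups whose mothers had or had not been given Aroclor 1254, a commercial mixture of polychlorinated biphenyls. The comparison takes the 6 hippocampus arrays of postnatal day 7 (PND7) out of 24 arrays in all, 3 from pups of dosed dams and 3 from pups of undosed dams. All were Long-Evans pups labelled male, 1 per litter. The dosed dams 12, 15 and 18 received 6 mg/kg of Aroclor 1254 per day by mouth in corn oil from gestation day 6 until the pup was taken, and the undosed dams 1, 7 and 13 received corn oil with 0 mg/kg. The other 18 arrays hold hippocampus at PND14 and cerebellum at both ages from litters of the same 6 dams, and serve here for the spread between arrays and for 2 side comparisons. Each array is 1 pup of 1 dam, so 3 litters stand on each side. The series asks how perinatal exposure to this mixture changes gene expression in the developing brain.

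Polychlorinated biphenyls are persistent, fat-soluble compounds that pass from mother to pup through the placenta and above all through milk. Coplanar congeners bind the aryl hydrocarbon receptor, which pairs with Arnt and turns on Cyp1a1, Cyp1b1 and other enzymes of foreign-compound metabolism. Other congeners lower circulating thyroid hormone or alter calcium release through ryanodine receptors. In the first postnatal week the rat hippocampus is still adding granule neurons to the dentate gyrus, its synapses are few, myelination has barely begun, and the meninges and choroid plexus around it supply collagen, retinoic acid and growth factors such as Igf2.

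The values are log2 intensities per probe set, quantile normalized across 23 arrays. One array of the 24, from the cerebellum of an undosed PND14 pup (dam 13), was not used in the fit: its column median was 7.91 against 7.42 to 7.48 in the others. Arrays within each of the 2 hippocampus PND7 groups correlated at 0.993 to 0.997. Before normalization the column median was slightly higher in dosed pups (7.47 ± 0.01, SD, n = 3, against 7.44 ± 0.01), as was the lower quartile (6.06 ± 0.06 against 5.95 ± 0.04). For both, the exact two-sided permutation p was 0.1, the smallest that 3 against 3 arrays allow. The 3′ minus 5′ probe set difference, which grows as RNA degrades, was 0.69 ± 0.17 for Gapdh in dosed and 0.61 ± 0.06 in undosed pups (exact permutation p = 0.5). For Hexokinase it was 2.32 ± 0.35 against 2.08 ± 0.14 (exact permutation p = 0.4), and for beta-actin 0.81 ± 0.09 against 0.81 ± 0.07. In Gapdh and Hexokinase the dosed pups of dams 15 and 18 lay above every undosed pup, and that of dam 12 lay below every one. The markers fit the tissue label: Prox1, a transcription factor of dentate granule neurons, lay at 8.40 to 8.96 in the 6 arrays and at 7.13 to 7.53 in the PND7 cerebellum arrays. Pcp2, a Purkinje cell gene, lay at 6.24 to 6.89 against 10.82 to 11.11. One array went against its label, since Xist, which female cells express, read 9.72 in the undosed pup of dam 13 and 3.99 to 4.27 in the other 5. In all, 4 of the 23 arrays had high Xist, each from an undosed pup of dam 1 or 13. Apparent sex was thus not balanced between dosed and undosed arrays.

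Of 10330 probe sets tested, limma called 62 (0.600%) at an adjusted p under 0.05. In dosed pups 38 were lower (0.368%) and 24 higher (0.232%), and the 3 dosed and 3 undosed arrays did not overlap for any of the 62. Among all probe sets tested, all dosed arrays lay below all undosed arrays in 10.3% and above in 12.1%, and 1761 (17.0%) had an unadjusted p under 0.05. The falls were the larger changes, from 0.28 to 1.16 on the log2 scale with a median of -0.56, while the rises ran from 0.28 to 0.57 with a median of 0.37. Of the probe sets with a single gene symbol, 33 genes fell and 21 rose. The genes that fell include the matrix proteins Lum and Dcn, the retinoic acid carrier Crabp2 and the transcription factors Meis2 and Nr2f2. The cell cycle inhibitor Cdkn1c and the peptide-modifying enzymes Pgpep1 and Qpct also fell. The genes that rose include the aldehyde reductase Akr7a3, the membrane protein Cmtm7, the tetraspanin Tspan18 and apolipoprotein Apob. The calls depend on single litters. Leaving out the undosed pup of dam 1 or of dam 7, or the dosed pup of dam 15, left 0 called, with 1126, 1378 and 1261 at an unadjusted p under 0.05, whereas leaving out the dosed pup of dam 18 gave 260. Leaving out the high-Xist pup of dam 13 gave 21, of which 17 were among the 62. Without the dosed pup of dam 12 the count was 36, of which 23 were among the 62. Without all 4 arrays of high Xist most of the 62 calls were lost, as given at the end.

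**Figure D1:**
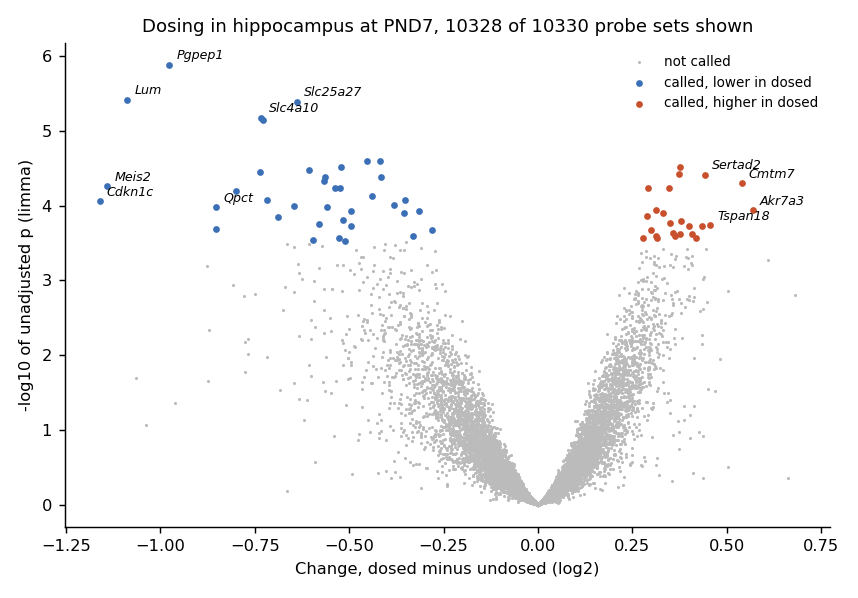
Each point is 1 probe set, with the log2 change (dosed minus undosed, 3 arrays each) on the x axis and -log10 of limma's unadjusted p on the y axis. The 38 called falls reach 1.16 on the log2 scale and the 24 called rises reach 0.57; Xist and an unnamed probe set, both high in 1 undosed array only and not called, lie beyond the left edge.

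Upstream sequences are shown for the called gene with the smallest p and for the called genes Lum and Akr7a3. The reason is that coplanar congeners bind a receptor that reads a known DNA core. Whether this receptor acted on these genes was not tested. They are the 250 bases before the RefSeq start (GRCr8), written 5′ to 3′ on the gene's strand, with GCGTG or its reverse complement in capitals, the core read by the aryl hydrocarbon receptor with Arnt.
Pgpep1, chr16:18804802-18805051, + strand: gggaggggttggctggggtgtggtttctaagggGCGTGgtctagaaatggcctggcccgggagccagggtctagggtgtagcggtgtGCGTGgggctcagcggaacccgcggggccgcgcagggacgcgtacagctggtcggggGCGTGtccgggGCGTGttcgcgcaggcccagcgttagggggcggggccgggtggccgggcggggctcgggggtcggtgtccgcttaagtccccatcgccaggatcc
Lum, chr7:34245456-34245705, + strand: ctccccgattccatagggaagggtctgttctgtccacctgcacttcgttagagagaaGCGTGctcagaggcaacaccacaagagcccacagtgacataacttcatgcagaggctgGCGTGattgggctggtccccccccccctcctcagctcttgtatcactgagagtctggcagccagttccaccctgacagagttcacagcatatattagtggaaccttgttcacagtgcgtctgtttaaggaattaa
Akr7a3, chr5:156876471-156876720, + strand: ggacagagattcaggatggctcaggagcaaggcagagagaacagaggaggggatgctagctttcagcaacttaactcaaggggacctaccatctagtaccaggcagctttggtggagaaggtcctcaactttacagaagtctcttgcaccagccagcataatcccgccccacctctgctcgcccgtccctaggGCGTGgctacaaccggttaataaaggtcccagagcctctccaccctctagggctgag
Pgpep1 has 4 matches, beginning at -217, -163, -106 and -95 from the start, Lum has 2 and Akr7a3 has 1. In the table's windows, which also take in 50 bases after the start, GCGTG was found in 15 of 27 fallen genes (55.6%), in 9 of 18 risen genes and in 3215 of all 6255 tested genes with a sequence (51.4%). AGGTCA, the half-site of thyroid hormone and retinoid receptors, was in 14.8% of the fallen, 16.7% of the risen and 11.4% of all. The antioxidant response core TGACNNNGC was in 14.8%, 11.1% and 14.9%. All motifs were searched on both strands and may overlap one another. The shares among called genes are near those of all genes.

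Genes of the meninges and of fibroblasts were lower in dosed pups. Lum encodes lumican, a small proteoglycan that organizes collagen fibrils. It read 7.05, 6.80 and 6.51 in the undosed pups of dams 1, 7 and 13 and 5.87, 5.42 and 5.81 in the dosed pups of dams 12, 15 and 18. All dosed values lay below all undosed ones, and Lum fell by 1.09 ± 0.17 (SE, 3 dams per group, adjusted p = 0.0141), a 2.13-fold difference. Dosed pups had Lum at the 20.9 percentile of their arrays, where the signal is low. Dcn, or decorin, a related collagen-binding proteoglycan, read 7.69, 7.93 and 8.04 in undosed and 7.23, 7.36 and 7.39 in dosed pups, and fell by 0.56 ± 0.12 (adjusted p = 0.035). Crabp2, which hands retinoic acid to its nuclear receptors and is made in meningeal fibroblasts, read 7.92, 7.26 and 7.69 in undosed and 6.91, 6.46 and 6.95 in dosed pups. Its fall was 0.85 ± 0.19 (adjusted p = 0.0434). Its lowest undosed value came from dam 7 and its lowest dosed value from dam 15, and the groups did not overlap.

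The wider list of meningeal and fibroblast genes moved in the same direction. All lists were written with earlier results of these data known, so their counts are descriptions and not tests. Of 43 such genes on the array 34 passed the filter, and 27 of these (79.4%) were lower in dosed pups, with a median change of -0.35. Over all 7474 genes, 46.7% were lower and the median was 0.010. Of the 34, 3 were called lower and 0 higher, against 25 of all genes called lower (0.334%). In 16 of the 34 (47.1%) all dosed pups lay below all undosed pups, against 9.86% of all genes, and in 1 they lay above, against 12.8%. The mean of the 34 was 8.61, 8.49 and 8.34 in the undosed pups of dams 1, 7 and 13 and 8.27, 7.95 and 8.19 in the dosed pups of dams 12, 15 and 18. The lowest mean was that of dosed dam 15 and the highest that of undosed dam 1. The count without the high-Xist arrays, a setting chosen after seeing the data, was 28 of 34 with a median of -0.43. In whole tissue, fewer cells of a type and less RNA per cell cannot be told apart.

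The collagen chains themselves were not called. Col1a2, a chain of type I collagen, read 10.25, 9.77 and 9.65 in undosed and 9.38, 8.64 and 9.33 in dosed pups, a change of -0.77 ± 0.26 (adjusted p = 0.135). Col3a1 changed by -0.60 ± 0.24 (adjusted p = 0.197) and Col1a1 by -0.57 ± 0.23 (adjusted p = 0.211). Without the dosed pup of dam 15 the Col1a1 change was -0.27. Col5a2, which regulates fibril width, changed by -0.47 ± 0.12 (adjusted p = 0.0606). Among transporters of the meninges, Slc6a13, which carries GABA and taurine, read 8.27, 8.31 and 8.08 against 7.59, 7.16 and 7.66, a change of -0.75 ± 0.20 (adjusted p = 0.0791). The sulfate transporter Slc13a4 changed by -0.72 ± 0.26 (adjusted p = 0.159). Ptgds, the prostaglandin D synthase of the leptomeninges, changed by -1.04 ± 0.58 (adjusted p = 0.379), with 10.07 in the dosed pup of dam 15 and 11.56 to 12.41 in the other 5. Cldn11, a tight junction protein of the arachnoid barrier and of myelin, read 8.32, 8.04 and 7.84 in undosed and 7.23, 7.36 and 7.29 in dosed pups, a change of -0.78 ± 0.30 (adjusted p = 0.187). Its other probe set changed by -0.42. Cldn11 stands in the oligodendrocyte list and is not among the 34 meningeal and fibroblast genes. The member of the meningeal list with the largest change upward was the matrix protein Fbln2, at 0.30 ± 0.14 (adjusted p = 0.279).

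Markers of the neighbouring vascular and choroid cells gave other values. All 9 choroid plexus and ependyma genes tested had lower means in dosed pups, with a median of -0.24 and 0 called. Ttr, the transthyretin that choroid plexus secretes in bulk, read 12.82, 8.83 and 11.76 in undosed and 12.56, 11.42 and 7.43 in dosed pups, so single pups of either group held much or little. Its change was -0.66 ± 1.43, and without undosed dam 1 or dosed dam 18 it became 0.18 or 0.86. The choroid list's median ran from -0.45 to 0.036 when single pups were left out, at its highest without undosed dam 1. Of 16 endothelial genes, 12 were higher and 4 lower, with a median of 0.067, and of 12 genes of pericytes and smooth muscle, 7 were higher, with a median of 0.086. No gene of either list was called by the probe set that represents it. The part of meningeal, choroid or vascular tissue content in the falls was not tested.

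**Figure D2:**
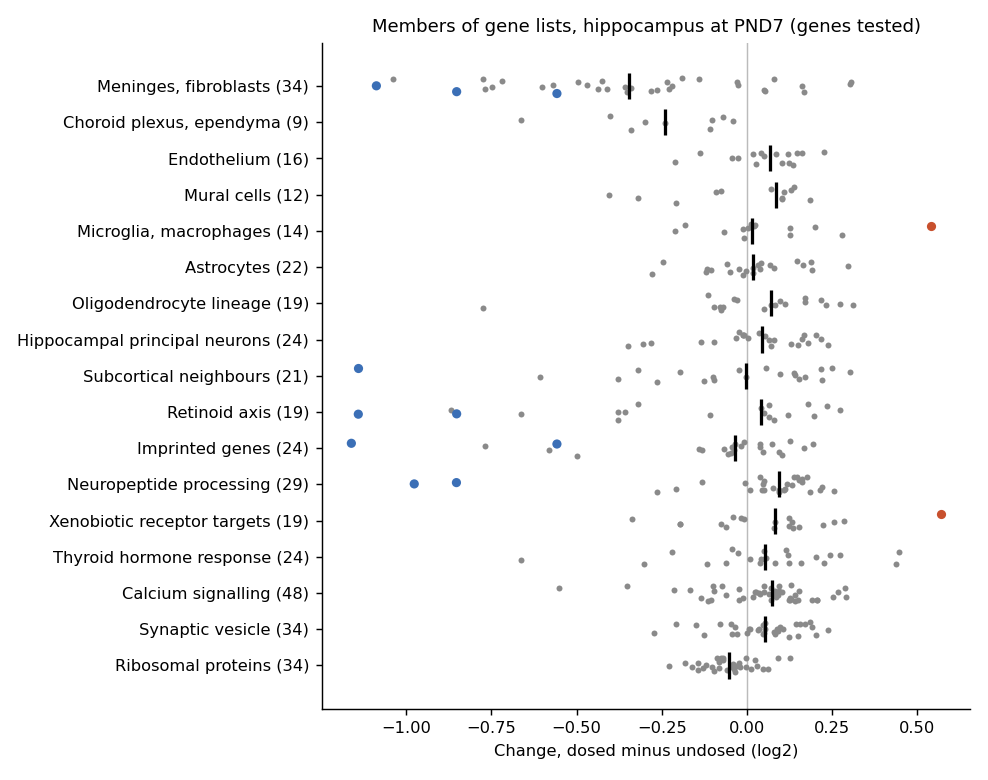
Each point is 1 tested gene of a list, placed by its log2 change (dosed minus undosed); the number tested stands beside each list, black bars are medians, and blue and red points are called falls and rises. The meningeal and fibroblast list has a median of -0.35, and the medians of the endothelial, astrocyte and hippocampal neuron lists lie at 0.067, 0.018 and 0.044.

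Retinoic acid made in the meninges acts on receptors in neural cells. Of 19 genes of this axis tested, 2 were called lower in dosed pups, Crabp2 and Meis2, against 0.334% of all genes. Meis2 encodes a homeodomain protein of developing striatum and olfactory bulb and is a known retinoic acid response gene. Meis2 read 7.00, 7.09 and 7.29 in undosed and 6.00, 5.88 and 6.08 in dosed pups. Every dosed value lay below every undosed one, and Meis2 fell by 1.14 ± 0.23 (adjusted p = 0.0276), a 2.21-fold difference. Meis2 passed the filter on dim probe sets through the undosed pups, whose mean lay at the 44.0 percentile against the 25.3 percentile in dosed pups, where the signal is low. Its adjusted p was 0.0237 with no filter, and without any 1 of the undosed pups it was not tested. Rbp4, the carrier of retinol, changed by -0.87 ± 0.27 (adjusted p = 0.12), with 6.87, 7.32 and 6.73 in undosed and 6.31, 5.86 and 6.14 in dosed pups. The receptor Rarb changed by -0.38 ± 0.09 (adjusted p = 0.0513) and Rarres2, which encodes chemerin, by -0.38 ± 0.11 (adjusted p = 0.0875). Aldh1a2, the retinaldehyde dehydrogenase of the meninges, changed by -0.36 ± 0.21 and its groups overlapped. Of the 19 retinoid genes, 9 were lower and 10 higher with a median of 0.042, which crossed 0 (-0.034 to 0.055) when single pups were left out. In 7 of the 19 (36.8%) all dosed pups lay below all undosed pups, against 9.86% of all genes, and in 2 (10.5%) above, against 12.8%. Meis2, which passed the filter through the undosed pups, is among the 7.

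Nr2f2, an orphan nuclear receptor of the caudal forebrain, of migrating interneurons and of vascular and meningeal cells, was called by 1 of its 2 probe sets. That probe set read 8.80, 8.82 and 8.67 in undosed and 8.17, 7.58 and 8.14 in dosed pups and fell by 0.80 ± 0.16 (adjusted p = 0.0288). The other, with the higher mean over all 23 arrays, changed by -0.32 ± 0.10 (adjusted p = 0.111), and its groups did not overlap either. Ppp1r1b, which encodes the striatal phosphatase inhibitor DARPP-32, read 7.74, 7.58 and 8.04 in undosed and 7.32, 7.13 and 7.10 in dosed pups, a change of -0.61 ± 0.14 (adjusted p = 0.0513). Of 21 markers of striatum, thalamus and other subcortical neighbours, 11 were lower and 10 higher with a median of -0.0018. Meis2 was the 1 called by the probe set that represents it in the list, against 0.334% of all genes called lower. All dosed pups lay below all undosed pups in 5 of the 21 (23.8%, against 9.86% of all genes) and above in 2 (9.52%, against 12.8%). Meis2, which passed the filter through the undosed pups, is among the 5. How much neighbouring tissue each dissection held was not tested. Of 24 genes of hippocampal principal neurons, 10 were lower and 14 higher, with a median of 0.044 and 0 called. Of 11 genes of neocortical neurons, 6 were lower, with a median of -0.025.

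Cdkn1c, the imprinted inhibitor of cyclin-dependent kinases known as p57Kip2, had the largest called change. It read 10.17, 9.16 and 9.40 in the undosed pups of dams 1, 7 and 13 and 8.76, 8.08 and 8.39 in the dosed pups of dams 12, 15 and 18. Every dosed pup lay below the lowest undosed pup, and Cdkn1c fell by 1.16 ± 0.24 (adjusted p = 0.0334), a 2.24-fold difference. Of 24 imprinted genes tested, 15 were lower and 9 higher with a median of -0.036. Among them 2 were called lower, Cdkn1c and Dcn, against 0.334% of all genes. The list was written with earlier results of these data known, so its count is no test. The growth factor Igf2, also imprinted and made in meninges and choroid plexus, changed by -0.77 ± 0.25 (adjusted p = 0.134), from 10.98, 10.69 and 10.41 to 10.38, 9.24 and 10.14. Without the dosed pup of dam 15 the Igf2 change was -0.43. Its binding protein Igfbp2 changed by -0.34 ± 0.17 (adjusted p = 0.316) and was -0.16 without the undosed pup of dam 1. Gatm, which makes the creatine precursor guanidinoacetate and is imprinted in placenta, changed by -0.58 ± 0.15 (adjusted p = 0.0606); without the dosed pup of dam 15 this was -0.37. Of 13 genes of the insulin-like growth factor axis, 4 were lower and 9 higher, with a median of 0.051. H19 changed by -0.043 and the maternally expressed Igf2r by 0.038.

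Markers of immature cells were mixed. Of 17 genes of neural progenitors and young neurons, 11 were lower with a median of -0.087 and 0 were called. Igfbpl1, a gene of newborn granule neurons, changed by -0.55 ± 0.17 (adjusted p = 0.121), the progenitor transcription factor Pax6 by -0.45 ± 0.16 (adjusted p = 0.167) and Sox11, which acts in newborn neurons, by -0.41 ± 0.15 (adjusted p = 0.159). All dosed pups lay below all undosed pups in these 3 of the 17 (17.6%, against 9.86% of all genes). They lay above in 1 (5.88%, against 12.8%). Of 26 cell cycle genes, 17 were lower, with a median of -0.036 and a range from -0.26 to 0.26, and 0 were called.

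The gene with the smallest p was Pgpep1, which encodes pyroglutamyl peptidase 1. This enzyme removes the cyclized glutamine or glutamate that caps peptides such as thyrotropin-releasing hormone, while Qpct, glutaminyl cyclase, puts that cap on. Both were called and both fell. Pgpep1 read 8.13, 8.21 and 7.76 in undosed and 6.95, 6.91 and 7.32 in dosed pups, and fell by 0.98 ± 0.14 (adjusted p = 0.0134). It was called in 13 of 18 other settings, and its adjusted p was 0.0702 without undosed dam 1 and 0.0653 without dosed dam 15. Qpct read 7.87, 7.46 and 7.31 in undosed and 6.97, 6.54 and 6.57 in dosed pups, and fell by 0.85 ± 0.18 (adjusted p = 0.035). Dams 13 and 18 gave the closest pair of Pgpep1 values across groups, and dams 13 and 12 the closest pair of Qpct values. Of 29 genes of neuropeptide processing and secretion tested, these 2 were called lower and 0 higher, against 0.334% and 0.254% of all genes. The list was written with earlier results of these data known, so its count is no test. Of the 29, 23 were higher and 6 lower, with a median of 0.095. The prohormone convertase Pcsk2 changed by 0.12, the amidating enzyme Pam by 0.15 and the granin Scg2 by -0.21.

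**Figure D3:**
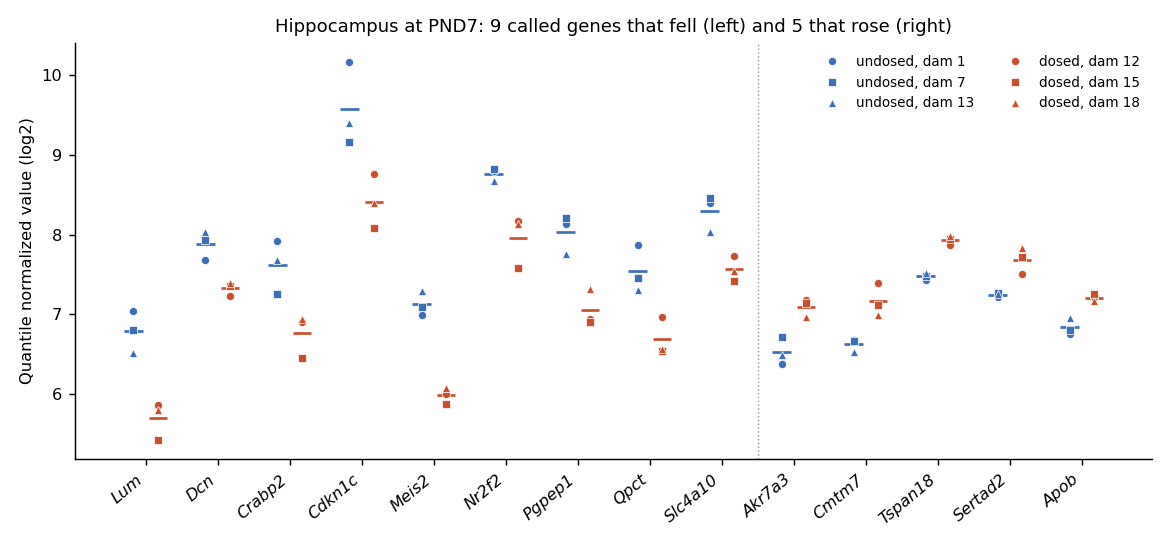
Each symbol is the quantile normalized log2 value of 1 array, blue for undosed and red for dosed pups, with bars at the means of 3 and symbol shapes marking the dams. For each of the 9 fallen genes on the left all dosed pups lie below all undosed pups, as for Meis2 at 5.88 to 6.08 against 7.00 to 7.29, and for the 5 risen genes on the right all lie above.

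Among membrane and signalling genes that fell, Slc4a10, a bicarbonate transporter of neurons and choroid plexus, read 8.39, 8.46 and 8.04 in undosed and 7.73, 7.42 and 7.54 in dosed pups. It fell by 0.73 ± 0.12 (adjusted p = 0.0147). The part of choroid plexus content in this fall was not tested. Dab2, an endocytic adaptor, read 9.31, 9.01 and 8.92 in undosed and 8.73, 8.14 and 8.21 in dosed pups, and fell by 0.72 ± 0.15 (adjusted p = 0.0334). Slc25a27, the mitochondrial carrier UCP4 of neurons, read 8.16, 7.97 and 8.14 against 7.34, 7.46 and 7.54 and fell by 0.64 ± 0.10 (adjusted p = 0.0141). Its other probe sets changed by -0.18 ± 0.11 and -0.0012 ± 0.084. Smad5, which carries signals of bone morphogenetic proteins to the nucleus, fell by 0.73 ± 0.12 (adjusted p = 0.0147) on a dim probe set, at the 16.4 percentile in dosed pups. A brighter Smad5 probe set changed by 0.036 ± 0.11. The dystrophin-associated protein Sspn fell by 0.65, the polarity protein Pard3 by 0.52 and the cytokine signal suppressor Socs6 by 0.52. Of 37 genes of the TGF-beta and Wnt pathways, 20 were lower and 17 higher with a median of -0.019. The Wnt antagonist Sfrp1, made by progenitors, changed by -0.51 ± 0.16 (adjusted p = 0.128).

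A further group of fallen genes acts in the nucleus, on RNA or in membrane traffic. The splicing factors Rbm39 and Srsf1 fell by 0.52 ± 0.11 and 0.38 ± 0.08, and Pdcd4, an inhibitor of translation, fell by 0.45 ± 0.08, from 8.09, 8.12 and 8.09 to 7.62, 7.53 and 7.78. The zinc finger genes Zfp207, Zfp386 and Zfp423 fell by 0.69, 0.61 and 0.33, the general transcription factor subunit Gtf2e2 by 0.60 and the chromatin ATPase Morc3 by 0.53. Of the genes of Golgi, motors and endosomes, Tmf1 fell by 0.57, the dynactin subunit Dctn4 by 0.51, Commd7 by 0.42, Yipf4 by 0.32 and the cargo receptor Tmed9 by 0.28. The peroxisomal proteins Acbd5, which tethers the organelle to the endoplasmic reticulum, and Scp2, a lipid carrier, fell by 0.58 ± 0.13 and 0.42 ± 0.08. Amn1, Dnph1 and Lhfpl6 complete the named falls, at 0.54, 0.44 and 0.35. The groups stood apart in each of these genes, with adjusted p from 0.0276 to 0.0494.

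The rises were smaller. Akr7a3 encodes an aflatoxin aldehyde reductase that liver induces in response to foreign compounds. It read 6.38, 6.72 and 6.49 in undosed and 7.18, 7.15 and 6.97 in dosed pups, and rose by 0.57 ± 0.12 (adjusted p = 0.035), a 1.48-fold difference. Cmtm7, a membrane protein of immune cells, read 6.69, 6.67 and 6.53 against 7.40, 7.12 and 6.99 and rose by 0.54 ± 0.11 (adjusted p = 0.0276). Tspan18, a tetraspanin, read 7.43, 7.48 and 7.52 against 7.87, 7.94 and 7.99 and rose by 0.46 ± 0.10 (adjusted p = 0.0408). The lowest dosed value of Tspan18 lay above the highest undosed one. Sertad2, a regulator of transcription, read 7.21, 7.27 and 7.25 against 7.51, 7.72 and 7.83 and rose by 0.44 ± 0.08 (adjusted p = 0.0276), while its other probe set changed by 0.13 ± 0.09.

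Apob, the apolipoprotein of low-density lipoprotein, read 6.76, 6.81 and 6.95 against 7.22, 7.25 and 7.16 and rose by 0.37 ± 0.07 (adjusted p = 0.0276). The phospholipase Pla2g6 rose by 0.41 ± 0.09, the lipid transporter Abca3 by 0.30 ± 0.07, the glucokinase regulator Gckr by 0.36 ± 0.08 and the mitochondrial coenzyme A carrier Slc25a42 by 0.38 ± 0.08. Signalling genes that rose were the adaptor Stap2 (0.42), the Notch-modifying enzyme Rfng (0.40), the kinases Stk40 (0.35) and Hipk3 (0.29), Crlf3 (0.35) and the JNK scaffold Mapk8ip1 (0.29). Mapk8ip1 was the brightest of them, with 10.72, 10.74 and 10.77 in undosed and 10.96, 11.09 and 11.06 in dosed pups. Hhipl1 rose by 0.44, the lens crystallin gene Crybb3 by 0.33, the nuclear pore gene Pom121 by 0.32, the ubiquitin ligase adaptors Btbd6 and Fem1a by 0.31 each and Urgcp by 0.28. Adjusted p ran from 0.0276 to 0.0472 over the rises.

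Genes of foreign-compound response showed 1 call. Of 19 tested, 8 were lower and 11 higher with a median of 0.082. Akr7a3 was the 1 called higher, against 0.254% of all genes. Cyp1a1, the classic aryl hydrocarbon receptor target, was too dim to be tested and read 6.32 ± 0.15 (SD) in undosed and 6.43 ± 0.21 in dosed pups. Cyp1b1 read 8.48, 8.37 and 8.27 against 8.22, 8.45 and 8.41, a change of -0.017 ± 0.14 whose sign turned with 3 other settings. Cyp1a2 changed by 0.29 ± 0.09 (adjusted p = 0.12), Arnt by 0.22 ± 0.09 (adjusted p = 0.2) and the quinone reductase Nqo1 by -0.34 ± 0.16 (adjusted p = 0.286).

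Genes that respond to thyroid hormone were not called. Of 24 tested, 7 were lower and 17 higher with a median of 0.053. Hr, a corepressor gene switched on directly by the hormone in brain, read 7.24, 7.46 and 7.51 in undosed and 7.78, 7.64 and 7.52 in dosed pups, a change of 0.24 ± 0.22. Klf9, another direct target, changed by -0.12 ± 0.12, with a sign that turned without undosed dam 7, and its dimmer probe set by 0.26 ± 0.13. Pcp2 changed by 0.45 ± 0.11 (adjusted p = 0.0521) at a level far below that in cerebellum.

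No calcium or synapse gene of the lists was called, and 46.7% of all genes were lower. Of 48 genes of calcium signalling, 34 were higher and 14 lower (29.2%) with a median of 0.075. The ryanodine receptor gene Ryr2 read 6.73, 7.02 and 6.82 in undosed and 7.07, 7.18 and 7.20 in dosed pups, a change of 0.29 ± 0.12 (adjusted p = 0.2). Camk2d, a calmodulin-dependent kinase, changed by -0.55 ± 0.17 (adjusted p = 0.106) with overlapping groups, while its other probe sets lay at -0.39 and 0.079. Of 34 synaptic vesicle genes, 24 were higher with a median of 0.052, among them the presynaptic scaffold Bsn at 0.24 ± 0.09 (adjusted p = 0.172). Of 31 genes of glutamate receptors and their scaffolds, 16 were higher and 15 lower, with a median of 0.024. The AMPA receptor partner Cacng8 changed by 0.39 ± 0.11 (adjusted p = 0.0844). Of 18 genes of GABA and glycine receptors and transport, 12 were lower, with a median of -0.10, and Gad2, which makes GABA, changed by -0.41 ± 0.15 (adjusted p = 0.183). Of 34 ribosomal protein genes, 27 were lower, but with a median of only -0.053 and a lowest value of -0.23.

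Glial and blood lists showed few changes. Of 22 astrocyte genes, 12 were higher with a median of 0.018, and of 19 oligodendrocyte genes 11 were higher with a median of 0.071, although Cldn11 lay at -0.78. Of 14 genes of microglia and macrophages, 9 were higher with a median of 0.015. The medians of these 3 lists changed sign when single pups were left out. Cmtm7, of the microglia and macrophage list, was the 1 called in them, against 0.254% of all genes called higher. The microglial chemokine receptor Cx3cr1 changed by 0.28 ± 0.07 (adjusted p = 0.0713), from 6.81, 7.05 and 7.03 to 7.29, 7.23 and 7.20. Csf1r, the receptor that maintains microglia, changed by -0.21. Hbb, a globin of red cells, changed by -0.63 ± 0.29 (adjusted p = 0.266), and 4 of 5 red cell genes were lower. Other fixed lists had 0 calls by the probe sets that represent their genes. In them, 9 of 17 glucocorticoid, clock and stress genes were lower (median -0.035), as were 5 of 14 immediate early genes (median 0.085). So were 9 of 16 interneuron and Cajal-Retzius genes (median -0.062) and 6 of 11 cerebellar markers (median -0.012).

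The same dosing comparison in the other tissue and at the other age gave 0 called probe sets. In cerebellum at PND7 limma found 543 (5.26%) at an unadjusted p under 0.05 and 0 (0%) called, and in hippocampus at PND14 it found 392 (3.79%) and 0 called. Of the 38 probe sets that fell in hippocampus at PND7, 15 were lower after dosing in cerebellum at PND7, with a median of 0.050, and 11 were lower in hippocampus at PND14, with a median of 0.069. Of the 24 that rose, 16 were lower in each, with medians of -0.027 and -0.023. Of the 38, 8 had an unadjusted limma p under 0.05 in cerebellum at PND7. These went in both directions, such as Commd7 at -0.23 and Tmf1 at 0.32. In hippocampus at PND14, 4 of the 38 had such a p. Of the 24, 0 had it in cerebellum at PND7 and 3 in hippocampus at PND14. The PND7 tissues come from the same 6 litters, while the PND14 pups are others of those litters. Cdkn1c changed by -0.75 in cerebellum at PND7 and by -0.044 in hippocampus at PND14, Crabp2 by -0.41 and -0.18, and Lum by -0.14 and -0.22. Meis2 changed by 0.090 and 0.095, and Tspan18 by 0.0090 and 0.44. Of the 34 meningeal and fibroblast genes, 33 were lower in cerebellum at PND7 with a median of -0.20, and 25 in hippocampus at PND14 with a median of -0.071. Over all 7474 genes, 3920 were lower in cerebellum at PND7 and 3828 in hippocampus at PND14, with medians of -0.0052 and -0.0033.

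**Figure D4:**
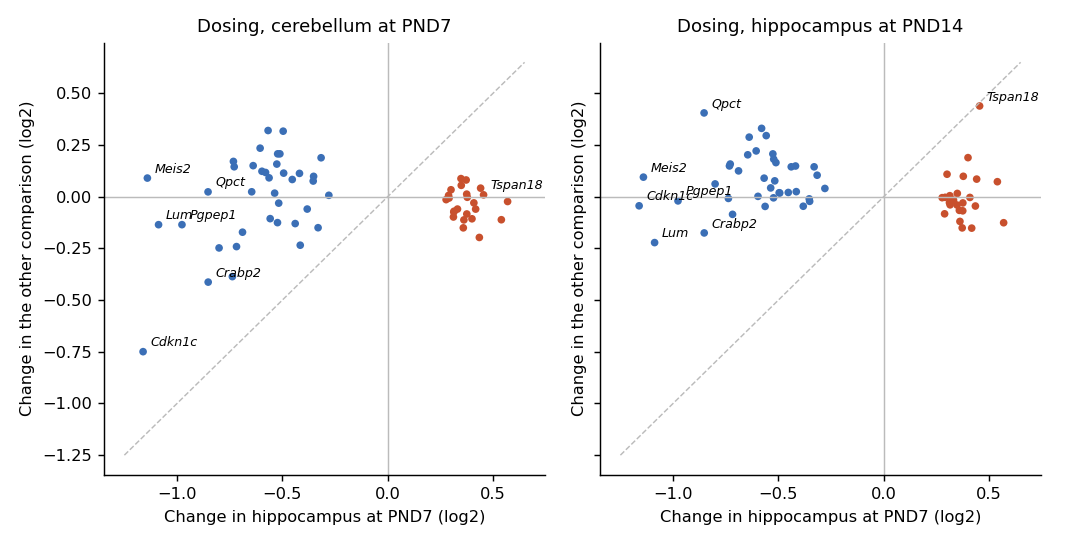
Each point is 1 of the 62 called probe sets, with its log2 change after dosing in hippocampus at PND7 on the x axis and that in cerebellum at PND7 (left) or hippocampus at PND14 (right) on the y axis; the dashed line marks equal change. Points of the falls (blue) and rises (red) lie on both sides of 0 on the y axis, with Cdkn1c at -0.75 on the left and Tspan18 at 0.44 on the right.

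The differences between these dosing effects were tested in the same fit. Between PND14 and PND7 in hippocampus, 14 probe sets were called (0.136%), with 1468 (14.2%) at an unadjusted p under 0.05. Of the 14, 9 belong to named genes that fell at PND7, and Apob is the 1 that rose. Both the age and the tissue difference use the 6 hippocampus PND7 arrays that gave the calls. Overlap with the called genes is thus partly built in and is no independent support. The called probe set of Slc25a27 changed by -0.64 at PND7 and by 0.29 at PND14, a difference of 0.93 ± 0.15 (adjusted p = 0.0295). Qpct changed by -0.85 and 0.41 (difference 1.26 ± 0.25, adjusted p = 0.0478), Dcn by -0.56 and 0.30 (0.85 ± 0.16, adjusted p = 0.0466) and Apob by 0.37 and -0.15 (-0.52 ± 0.10, adjusted p = 0.0466). Between hippocampus and cerebellum at PND7, limma called 0 (0%), with 1459 (14.1%) at an unadjusted p under 0.05 and 9 called with the dam as a random block. The smallest adjusted p was 0.0534, shared by Tmf1, Slc25a27, Yipf4, Socs6, Slc4a10, Zfp386, Tmco3 and an unnamed probe set. The Slc4a10 change was -0.73 in hippocampus and 0.17 in cerebellum, a difference of -0.90 ± 0.17. That of Tmf1 was -0.57 and 0.32, a difference of -0.89 ± 0.16.

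Other probe sets of the called genes gave a weaker picture. Of the called genes, 13 had 16 further probe sets tested, of which 12 changed in the same direction and 0 were called, with adjusted p between 0.0859 and 0.997. The further probe set of Nr2f2 lay at -0.32 and those of Rbm39 at -0.38, -0.26 and 0.0023, while those of Scp2 and Smad5 lay at 0.031 and 0.036. Those of Slc25a27 lay at -0.18 and -0.0012, and those of Srsf1, Zfp423, Dctn4 and Commd7 at -0.27, 0.10, -0.032 and -0.033. Among the rises, those of Sertad2, Mapk8ip1, Rfng and Pla2g6 lay at 0.13, 0.091, 0.082 and 0.017. With 1 probe set per gene, the brightest, 44 of 7474 genes (0.589%) were called, 25 lower and 19 higher (0.254%). In 18 other settings all 62 probe sets kept their sign wherever they were tested, and 0 were called in every one. Pgpep1 was called in 13 of 18, Slc4a10 in 12 of 18 and Lum in 11 of the 15 that tested it.

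**Figure D5:**
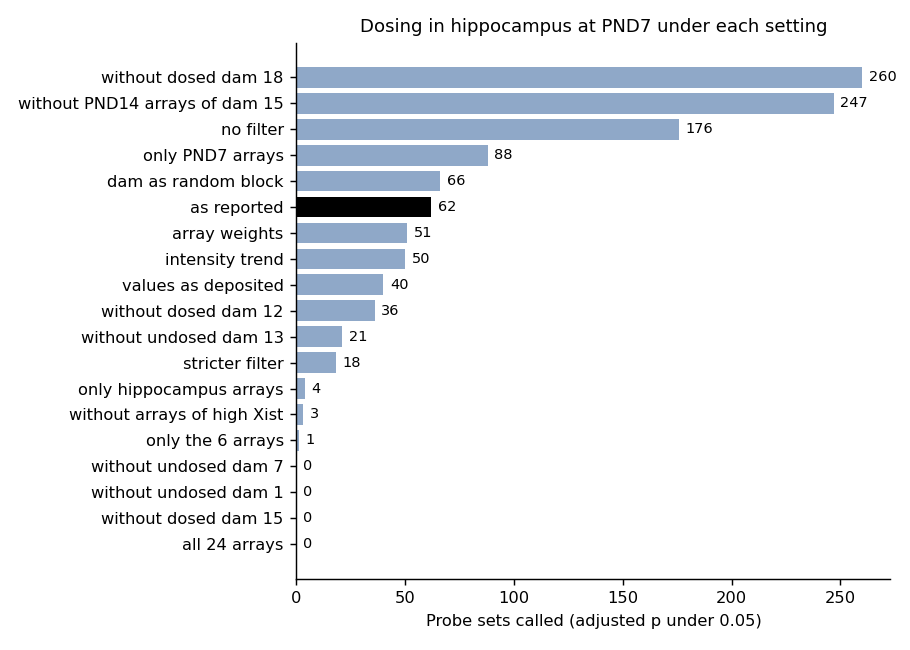
Bars give the number of probe sets called at an adjusted p under 0.05 for dosing in hippocampus at PND7 under each setting of the fit, with the reported one in black. The count is 62 as reported, 40 with the values as deposited, 1 with only the 6 arrays, 0 with all 24 arrays and between 0 and 260 when single pups are left out.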

How the data were processed

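RNA from 24 rat tissues was measured on Affymetrix RAE230A arrays; the 6 hippocampus PND7 arrays are compared here. The authors deposited log2 values, 1 for each probe set; that scale was inferred from the spread of the values, and no label or header used here names the software behind them. The members and lists were chosen with earlier results of these data known. Of 15923 probe sets, 57 controls were dropped; 12783 of the rest have 1 gene symbol in the platform table. Values of 23 arrays were quantile normalized with limma 3.58.1 (R 4.3.3), and the 10330 probe sets that exceeded percentile 40 of their array 3 times or more were tested. Limma was fitted with 1 mean per group (8 groups, 15 residual degrees of freedom) and empirical Bayes; p-values were adjusted by Benjamini-Hochberg. A gene with several probe sets stands in its list by the one with the highest mean. Errors of changes are SE, of groups SD. P-values rest on 3 litters per group, and the array number limits precision.

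Genes named are the 15 largest called changes each way, 31 fixed genes, of each of 30 lists the 6 largest changes and called members, and the 6 smallest p of each difference test; other genes, including the remaining called ones, were chosen after their values were seen. Numbers in the labels name the dam, so arrays of one dam are paired across tissues and ages; deviations correlated between the PND7 tissues of a dam with a median r of 0.24 (6 pairs) and between ages in hippocampus with 0.00082. Alternatives were the values as deposited, no or a stricter filter (percentile 60), an intensity trend, fewer or all 24 arrays, the dam as a block, array weights, each pup left out, and fits without arrays of high Xist or the PND14 arrays of dam 15. The code was tested on simulated data. RefSeq sequences (GRCr8) were matched by Entrez number.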

Additional observations from a re-analysis of the deposited data

Results flagged for a closer look

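The dosing effect in hippocampus differed between PND14 and PND7, by the contrast of the 2 effects in limma's fit, for 14 probe sets; values are the PND14 effect minus the PND7 effect on the log2 scale. Slc25a27 had 0.93, Slc4a10 0.88, Smad5 0.89, Zfp386 0.83, Socs6 0.70, Scp2 0.57, Acbd5 0.91, Qpct 1.26 and Dcn 0.85, all genes that fell at PND7 and had a mean change above 0 at PND14, and Apob had -0.52. An unnamed probe set had 0.67, after a change of -0.39 at PND7. The other 3 are probe sets of the paired alpha globin genes Hba-a2 and Hba-a1, at 1.60, 1.46 and 1.64. They changed by -0.52, -0.46 and -0.54 at PND7 and by 1.09, 0.99 and 1.11 at PND14, and none was called at either age. The adjusted p of the 14 ran from 0.0295 to 0.0478. The PND7 arrays that gave the calls also enter this difference, so its overlap with the called genes is partly built in. The count of 14 became 0 without undosed dam 1 or dosed dam 12 at PND7, 1 without undosed dam 7, 3 without dosed dam 15 and 56 without dosed dam 18.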

How the results depend on the processing

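The number of probe sets called for dosing was 62. It was 40 with the values as deposited (35 of them among the 62), 176 without a filter, 18 with the stricter filter, 4 with hippocampus arrays only, 1 with the 6 arrays only, 0 with all 24 arrays (669 at an unadjusted p under 0.05), 3 without arrays of high Xist and 247 without the PND14 arrays of dam 15. It ranged from 0 to 260 when each pup was left out. With the dam as a random replicate block it was 66, so the pairing of arrays by dam changed it little; the consensus correlation was 0.043. The difference between ages (14 called) gave 3 with the values as deposited, 0 with the stricter filter, 4 with the intensity trend, 3 with hippocampus arrays only, 0 with all 24 arrays, 0 without arrays of high Xist, 42 with array weights and 0 to 56 with single pups left out. The difference between tissues (0 called) gave 1 with the values as deposited, 13 without a filter, 2 with PND7 arrays only, 9 with the dam block, 23 without the PND14 arrays of dam 15, 58 with array weights and 0 to 111 with single pups left out. The cause was not tested. Of the list medians, that of mural cells became -0.013 without arrays of high Xist (a setting chosen after seeing the data), that of ribosomal protein genes -0.11 and that of cerebellar markers 0.058 with the values as deposited. With single pups left out, medians ran from 0.040 to 0.085 for endothelium, -0.044 to 0.11 for mural cells, -0.081 to 0.019 for interneurons, -0.030 to 0.097 for subcortical markers, 0.047 to 0.085 for synaptic vesicles, -0.014 to 0.043 for glutamate receptors, 0.0027 to 0.084 for the insulin-like growth factor axis, 0.044 to 0.12 for neuropeptide processing, -0.043 to 0.012 for TGF-beta and Wnt genes and -0.069 to 0.022 for cerebellar markers. Cyp1b1 turned to 0.013 with array weights and ranged from -0.068 to 0.051 with single pups left out, as did Ttr (-1.82 to 0.86) and Klf9 (-0.25 to 0.0018). Dim probe sets such as those of Lum and Smad5 have little signal over background.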
